A study of Mus musculus with 12 samples.

Results

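The 7 genes described here are *Mfrp* and 6 genes tied to it by disease or by position, *C1qtnf5*, *Prss56*, *Tmem98*, *Myrf*, *Best1* and *Crb1*. They were chosen by name, as genes mutated in nanophthalmos, posterior microphthalmos or related disorders of short eyes, together with *C1qtnf5*, which overlaps *Mfrp* on the chromosome. Of these, 6 have values among the 28591 genes quantified, and *C1qtnf5* was not analysed here. The retinal pigment epithelium (RPE), the pigmented cell layer behind the photoreceptors, was profiled by RNA sequencing in 6 libraries of WT mice (C57BL/6J) and 6 of rd6 mice (homozygous Mfrp rd6/rd6, from the Mfrp rd6/J strain), all 1 mo old and otherwise untreated. Mice of both sexes were used in the study, and the sources used here do not state that the WT were littermates. The rd6 allele is present in every cell from conception, so these mice are not a model of loss limited to the RPE. Each library holds the RNA of the RPE of both eyes, released from eyecups after the front of the eye and the neural retina had been taken off, so RNA of adjoining tissues can be present. The labels do not say that each library is a separate animal, and p-values measure only the spread between these libraries.

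Nanophthalmos is a condition in which the eye is short but otherwise formed, so that images focus behind the retina. MFRP, a membrane protein with frizzled-like and CUB domains, lies in the apical membrane of the RPE, and its loss in human gives a short eye and in the rd6 mouse gives white fundus spots and slow photoreceptor death. *Mfrp* and *C1qtnf5*, which encodes a secreted protein of the C1q and tumour necrosis factor family mutated in late-onset retinal degeneration, are known to be transcribed together. PRSS56 is a secreted serine protease made in the mouse retina by Müller glia, MYRF is a membrane-bound transcription factor that cuts itself free, and TMEM98 is a membrane protein that binds MYRF and blocks that cut. BEST1 is a calcium-gated chloride channel of the basolateral RPE membrane, and CRB1 is a Crumbs protein of the apical domain of photoreceptors and Müller glia.

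The rd6 mutation is a small deletion in the splice donor that follows exon 4 of *Mfrp*, and the mutant transcript is known to skip that exon. Exon 4 of the longest *Mfrp* transcript (14 exons, GENCODE M21) lies at chr9:44102466-44102639 on the + strand of GRCm38 (mm10) and is coding. It is shown because it is the stretch that the mutant message lacks, with the last 3 bases, next to the donor, in capitals.
*Mfrp* exon 4: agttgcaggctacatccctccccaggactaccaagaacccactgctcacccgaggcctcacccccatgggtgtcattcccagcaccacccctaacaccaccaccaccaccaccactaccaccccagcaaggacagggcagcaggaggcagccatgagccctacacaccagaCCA
The exon has 174 bases, the length of 58 codons, so that its removal keeps the reading frame. It makes up 4.03% of the transcript, and a count per gene does not show whether a read came from a message with or without it.

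*Mfrp* (ENSMUSG00000034739) spans chr9:44101729-44109187 on the + strand. *C1qtnf5* (ENSMUSG00000079592), at chr9:44107245-44109187 on the same strand, lies inside it, and all 1589 exonic bases of *C1qtnf5* are also annotated as exon of *Mfrp*. These bases are 36.7% of the 4334 exonic bases of *Mfrp*, leaving 2745 that are not shared. In this stretch the strand cannot tell the genes apart, and the study names Rsubread with standard settings but not the annotation it counted on. By default Rsubread ignores strand and leaves out reads that overlap more than 1 annotated gene, but it was not tested whether *C1qtnf5* was in that annotation, so the *Mfrp* values below may or may not include reads of *C1qtnf5*. On the opposite strand, exons of other genes face 702 exonic bases of *Mfrp* (16.2%), of which 648 lie in the stretch shared with *C1qtnf5*. Among these genes is *Rnf26*, which encodes a RING finger protein. The other 5 members overlap no other gene within their exons.

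RefSeq gives a single start for *Mfrp* and *C1qtnf5*. The paper, though, reports putative promoters of *C1qtnf5* itself in human and mouse from ENCODE annotation. From transcript levels across tissues it proposes that these genes are regulated independently. The promoter windows of RefSeq (GRCm38.p6), from 250 bases before to 50 after the start, hold entries for 6 of the 7 members, *Myrf* being the one without. The upstream bases of *Mfrp* are shown because *Mfrp* and *Myrf* were both lower in rd6 and because *C1qtnf5* has the same RefSeq start. Capitals mark GGATTA, the reverse complement of TAATCC, the core bound by the RPE and photoreceptor factors OTX2 and CRX, and GTGCCAG, the reverse complement of CTGGCAC, a core bound by MYRF.
*Mfrp*, chr9:44101520-44101728, + strand: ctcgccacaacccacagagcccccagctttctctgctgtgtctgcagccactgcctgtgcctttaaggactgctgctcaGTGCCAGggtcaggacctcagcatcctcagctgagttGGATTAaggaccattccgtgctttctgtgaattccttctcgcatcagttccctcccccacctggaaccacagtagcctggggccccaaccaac
On either strand, TAATCC occurred in 7.06% of 32851 promoter windows, and CTGGCAC or CTGGTAC in 7.10%. The *Mfrp* window held a match to each, and the *Best1* window held TAATCC alone. The E-box CACGTG or CATGTG, the core of MITF sites, occurred in 20.4% of windows and was found in those of *Tmem98* and *Crb1*, and TATAAA occurred in 13.6% and in none of the members' windows. These matches describe letters in the windows and were not tested as binding sites.

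The 12 libraries held 28907262 to 33152725 counted reads. The deposited values are read counts divided by a size factor per library, called normalized counts below, and the size factors differed by at most 1.23-fold. RPE genes dominated: *Rpe65*, the isomerase of the visual cycle, had 74331 to 193458 normalized counts. Libraries held other cell types as well, and 2 stood apart by their markers. WT replicate 4 had a mean log2 level of 9.20 over 5 ciliary margin genes, against 5.31 to 6.52 in the other WT libraries, and the lowest RPE marker level of the WT (16.08, against 16.33 to 16.45). The library labelled rd6 replicate 5 had a mean log2 level of 11.68 over 10 rod genes, against 9.75 to 10.22 in the other rd6 libraries, and the lowest RPE marker level of all (15.82). Where leaving out both ended a call or moved a count by much, the value without them is given. Fewer cells of a type and less RNA per cell cannot be told apart in such bulk samples.

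*Mfrp* and *Myrf* were lower in rd6 RPE, *Tmem98* was lower by a call that depended on the libraries and the fit, and no member was called higher. Over 17768 genes with a mean of at least 10, limma on log2(normalized count + 1) called 3 of the 6 members lower at a Benjamini-Hochberg adjusted p (q) below 0.05, where 11.6% of all genes were lower, and 0 members higher, where 11.4% of all genes were higher. The call of *Tmem98*, the third, was lost in 9 of the 12 fits that each left out 1 library and with the replicate block, which called 2. The block treats same-numbered libraries as pairs, which their deviations did not bear out (correlations from -0.74 to 0.31). No member was higher at an unadjusted limma p below 0.05 or by edgeR or DESeq2 (0 each). With the further limit on the fold change used in the study (a log2 change of 0.81 in either direction), which 6.80% of all genes passed, no member was called by limma, nor by edgeR or DESeq2 on the recovered reads, while 3 members had an unadjusted p below 0.05 by each tool.

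**Figure D1:**
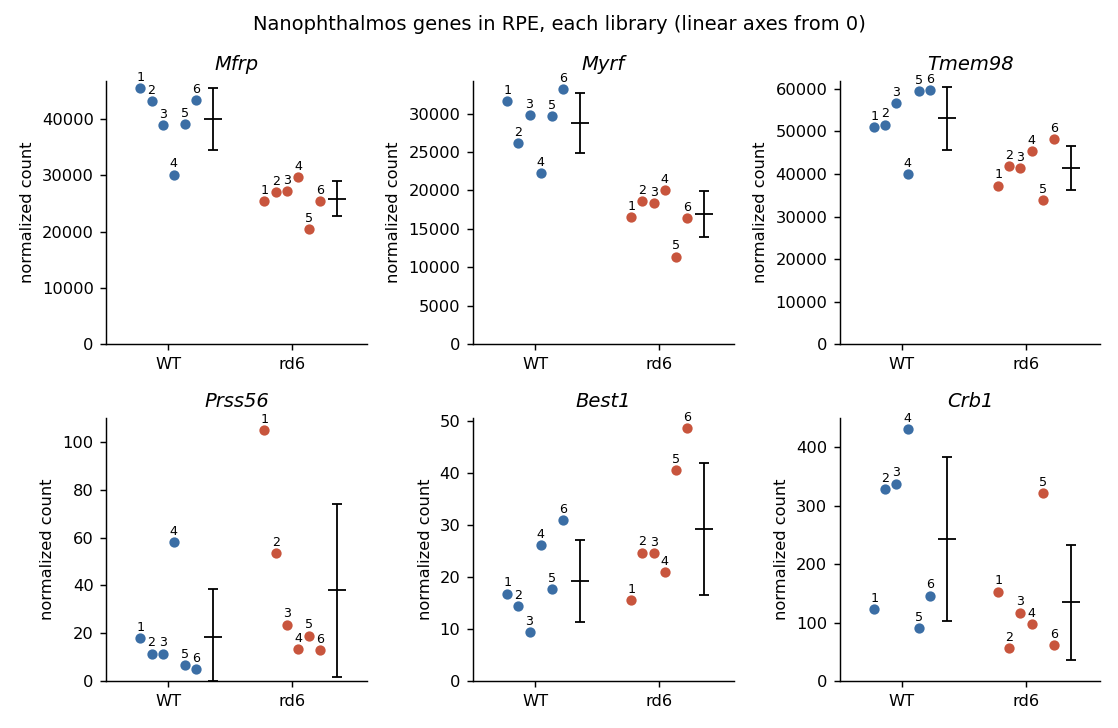
Normalized counts of the 6 members with values in each library (points, labelled with the replicate number; linear axes from 0), WT in blue and rd6 in red, with the mean ± SD of 6 libraries in black. The rd6 points of *Mfrp* and *Myrf* lie below all WT points, those of *Tmem98* reach up to the range of WT through WT replicate 4, and those of *Prss56*, *Best1* and *Crb1* overlap with WT.

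*Mfrp* had 30132 (lowest), 41136 (median) and 45442 (highest) normalized counts in WT and 20442, 26281 and 29732 in rd6. Every rd6 library lay below every WT library, but the gap between the highest rd6 library (replicate 4) and the lowest WT library (replicate 4) was narrow. Such a separation downward was found in 5.67% of all genes and upward in 5.77%. The mean was 40022 ± 5488 (SD, n = 6) in WT and 25881 ± 3091 in rd6. The log2 fold change was -0.63 ± 0.11 (SE; limma q = 0.00126), so that rd6 had 64.8% of the WT level. A two-sided exact permutation test on *Mfrp* alone gave p = 0.00216, the smallest that 6 against 6 libraries can give. Without WT replicate 4 and rd6 replicate 5 the log2 fold change was -0.64 (limma q = 3.1e-05). Per length, the reads assigned to *Mfrp* gave an RPKM (reads per kb of exon, scaled to the reads of the library) of 297 ± 35.8 in WT and 199 ± 20.8 in rd6, at the 99.3th and 98.7th percentile of 17755 genes. If none of these reads came from the exons shared with *C1qtnf5*, the levels would be 468 ± 56.5 and 314 ± 32.9, and if some were reads of *C1qtnf5*, those of *Mfrp* itself would be lower by an amount that the counts do not give.

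*Myrf* (ENSMUSG00000036098, chr19:10208272-10240748, − strand) showed the largest fall among the called members. It had 22300, 29755 and 33144 normalized counts in WT (lowest, median, highest) and 11403, 17447 and 19995 in rd6. Again no rd6 library reached the lowest WT library. The log2 fold change was -0.78 ± 0.13 (limma q = 0.00112), or 58.3% of the WT level, and -0.74 (limma q = 3.62e-05) without the pair of libraries that stood apart. *Myrf* is best known as the factor that drives myelin genes in oligodendrocytes, and 4 of 6 oligodendrocyte genes tested were lower and 1 (*Cnp*) was higher in rd6. Without the pair of libraries that stood apart, or with the replicate block, 2 were lower. The summed count of that list ran from 8210 to 11115 in WT and from 5562 to 6613 in rd6, less than *Myrf* alone. Of its myelin markers, *Mog* (0 to 12.4 normalized counts), *Opalin* (0 to 1.94) and *Mag* (4.43 to 47.5) were at or near 0, while *Mbp* had 1559 to 3716 in WT and 1303 to 1583 in rd6. *Sox10*, which pigment cells express as well, made up most of the sum and had a log2 fold change of -0.64 ± 0.10 (limma q = 0.000541). The part of oligodendrocytes in the difference of *Myrf* was not tested.

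*Tmem98* (ENSMUSG00000035413, chr11:80810175-80822033, + strand) had the highest level per length of all members. It had 39872, 54112 and 59660 normalized counts in WT and 33930, 41592 and 48127 in rd6 (lowest, median, highest). Its groups overlapped only through WT replicate 4, since the next lowest WT library had 51050. The log2 fold change was -0.36 ± 0.11 (limma q = 0.037), or 78.1% of the WT level. The call depended on the libraries and the fit: it was lost in 9 of the 12 fits that each left out 1 library, with q up to 0.0789, and also in the fit that blocked on replicate number (limma q = 0.0934). Without WT replicate 4 it was -0.44 (limma q = 0.00445), and without both libraries that stood apart -0.38 (limma q = 0.00427).

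**Figure D2:**
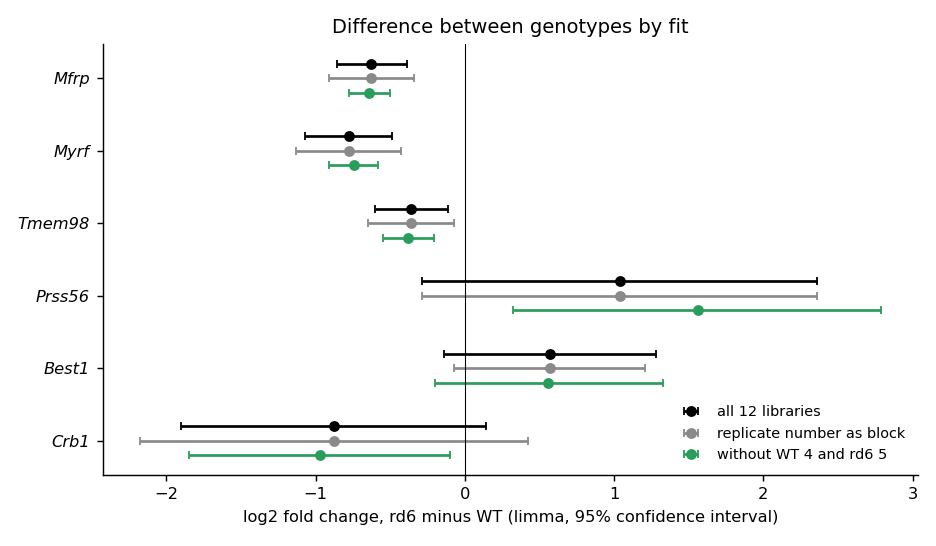
Log2 fold change (rd6 minus WT) and 95% confidence interval from limma for the 6 members, with all 12 libraries (black), with the replicate number as a block (grey) and without WT replicate 4 and rd6 replicate 5 (green). *Mfrp*, *Myrf* and *Tmem98* lie below 0 in each fit, and the intervals of *Best1* include 0 in each fit.

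*Prss56* (ENSMUSG00000036480, chr1:87183313-87188405, + strand) was among the least abundant genes tested. It had 4.83, 11.4 and 58.3 normalized counts in WT and 12.9, 21.3 and 105 in rd6 (lowest, median, highest). The highest WT value was that of replicate 4, and 1 rd6 library lay above it. The log2 fold change of 1.04 had a 95% confidence interval from -0.29 to 2.36 (limma q = 0.250). Without the pair of libraries that stood apart it was 1.56 (limma q = 0.0624).

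*Best1* (ENSMUSG00000037418, chr19:9985174-10001633, − strand), known for its RPE protein, was low in all 12 libraries, although other RPE genes were abundant. Whether reads at this locus were lost in alignment or counting was not tested, and the counts, RPKM and ratios of *Best1* hold only as deposited. It had 9.33, 17.2 and 30.9 normalized counts in WT and 15.5, 24.7 and 48.7 in rd6. Of the rd6 libraries, 2 lay above the highest WT library and the other 4 within the range of WT. The log2 fold change was 0.57, with an interval from -0.14 to 1.28 (limma q = 0.234). *Rab3il1*, an activator of small RAB GTPases that starts 36 bases from the start of *Best1* and runs the other way, had 445 to 652 normalized counts in WT and 723 to 900 in rd6 and rose (0.57 ± 0.09, limma q = 0.000466), its groups not overlapping. Ferritin heavy chain *Fth1*, whose end lies 0.1 kb from that of *Best1*, had 30827 to 43053.

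*Crb1* (ENSMUSG00000063681, chr1:139197056-139377100, − strand) varied most between libraries of a genotype among members with a mean above 100 counts. It had 90.8, 238 and 431 normalized counts in WT and 56.7, 107 and 322 in rd6 (lowest, median, highest). The WT libraries fell into 3 high values (replicates 2 to 4) and 3 low ones, and the high rd6 value was that of replicate 5. The log2 fold change was -0.88, with an interval from -1.90 to 0.14 (limma q = 0.206), and -0.97 without both libraries that stood apart (limma q = 0.0960). These libraries also differed in rod genes: 4 of 10 rod genes were lower in rd6 (median log2 fold change -0.97), 9 of 10 without both libraries that stood apart (median -1.16) and 1 of 10 with the replicate block, and their summed count ran from 33174 to 71522 in WT and from 17219 to 61753 in rd6, the highest being replicate 5. Taken relative to the mean of the rod genes, *Crb1* was at -3.53 ± 0.47 (log2, n = 6) in WT and -3.47 ± 0.38 in rd6, a difference of 0.06 (two-sided exact permutation test, p = 0.801). *Prss56* taken relative to 5 ciliary margin genes was at -2.56 ± 0.96 in WT and -1.69 ± 1.19 in rd6 (exact permutation test, p = 0.197). Both references were chosen after the values were seen.

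**Figure D3:**
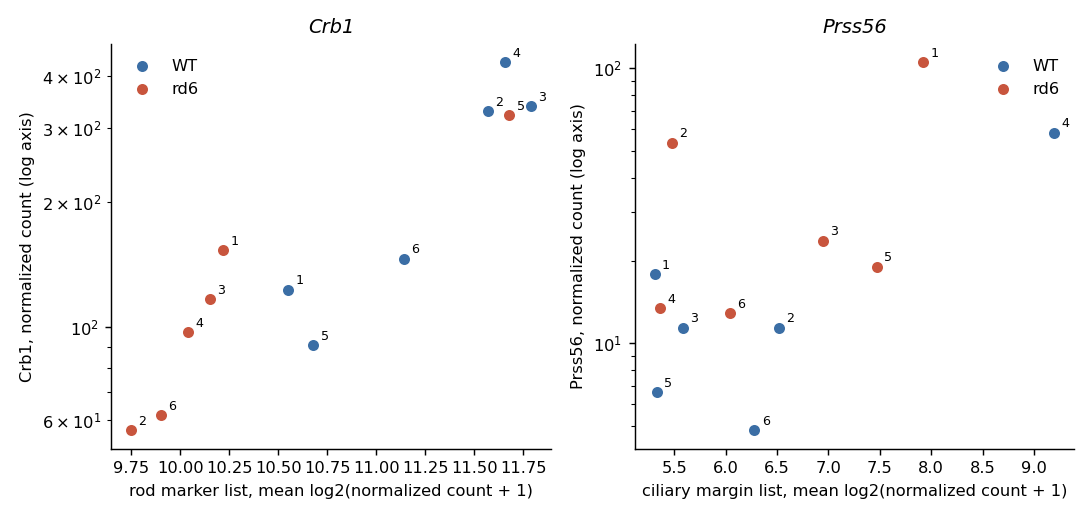
Normalized count of *Crb1* against the mean log2 level of 10 rod genes (left) and of *Prss56* against that of 5 ciliary margin genes (right), 1 point per library, labelled with the replicate number, WT in blue and rd6 in red (count axes are logarithmic). The rd6 replicate 5 lies among WT replicates 2 to 4 for *Crb1*, and WT replicate 4 lies far right for *Prss56*.

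Per length, the order of the members was the same in both genotypes for the 3 abundant genes. *Tmem98* led with an RPKM of 1042 ± 114 in WT and 842 ± 78.1 in rd6. *Mfrp* followed, and *Myrf* came next with 108 ± 11.9 in WT and 65.7 ± 10.9 in rd6. The ranges of these 3 genes did not overlap within a genotype. For scale, *Rpe65* stood at 2812 ± 276 in WT and beta-actin (*Actb*) at 238 ± 30.7. *Crb1* (0.551 ± 0.335), *Prss56* (0.280 ± 0.319) and *Best1* (0.240 ± 0.10) lay far lower in WT, at the 17.8th, 9.97th and 8.49th percentile, and did not differ from each other beyond their spread. This depends on the length used, since with the longest transcript *Crb1* stood at 1.30 ± 0.788 in WT, its lowest library (0.457) being just under the highest of *Best1* (0.464). In rd6 they stood at 0.316 ± 0.242, 0.587 ± 0.569 and 0.377 ± 0.159, again within their spread.

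Ratios within a library do not depend on the scaling between libraries. Of 14 ratios compared by two-sided exact permutation tests (n = 6 each), 6 passed after Benjamini-Hochberg adjustment, and the ratio of *Mfrp* to *C1qtnf5* was not computed. *Tmem98* over *Myrf*, the ratio of the inhibitor to the factor it binds, was 0.88 ± 0.11 (log2) in WT and 1.30 ± 0.20 in rd6. All 6 rd6 libraries (1.16 to 1.57) lay above all WT libraries (0.69 to 1.00), a difference of 0.42 (exact permutation test, adjusted p = 0.0101). So *Myrf* fell more than *Tmem98*. *Best1* over *Myrf* was higher in rd6 by 1.35 (exact permutation test, adjusted p = 0.0242), on the few reads of *Best1*, a call that held in 10 of the 12 comparisons that each left out 1 library (exact permutation tests, adjusted p up to 0.0606).

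Relative to *Actb*, *Mfrp* differed by -0.56 (exact permutation test, adjusted p = 0.0404) and *Myrf* by -0.72 (exact permutation test, adjusted p = 0.0242), while *Tmem98* differed by -0.29 (exact permutation test, adjusted p = 0.182). *Actb* itself had 16807 to 22578 normalized counts in WT and 16713 to 22716 in rd6. The call of *Mfrp* over *Actb* held in 3 of the 12 comparisons that each left out 1 library, with an adjusted p of up to 0.0909 (exact permutation tests), and that of *Myrf* in 10. The glycolytic enzyme gene *Gapdh* had 0.29 ± 0.08 (limma q = 0.0265), a call that was lost without both libraries that stood apart (limma q = 0.0742).

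Of 10 RPE genes, 5 were lower in rd6 (7 lower and 1 higher without both libraries that stood apart, 3 lower with the replicate block), with a median log2 fold change of -0.37, and their summed count ran from 1506755 to 2253544 in WT and from 1424726 to 1913999 in rd6. *Rpe65* fell by 0.79 on the log2 scale (SE 0.15, limma q = 0.002). The members were therefore set against the mean of the RPE genes in the same library. *Mfrp* stood at -1.06 ± 0.13 in WT and -1.37 ± 0.14 in rd6, a difference of -0.31 without overlap (exact permutation test, adjusted p = 0.0101). *Myrf* stood at -1.54 ± 0.11 and -2.0 ± 0.22, a difference of -0.46 without overlap (exact permutation test, adjusted p = 0.0101). *Tmem98* stood at -0.66 ± 0.10 and -0.70 ± 0.05, a difference of -0.04 (exact permutation test, adjusted p = 0.377). *Mfrp* and *Myrf* thus fell further than the mean of these RPE genes, which moved unequally. *Lrat* (-0.98 ± 0.13) and *Rgr* (-0.88 ± 0.15), both of the visual cycle, had larger log2 fold changes than either, and *Pmel* (0.46 ± 0.19), *Ttr* (0.25 ± 0.17) and *Slc6a20a* (0.15 ± 0.10) lay above 0 without passing. With the replicate number as a block, none of the 14 ratios passed in the exact sign-flip test (adjusted p of 0.125 or more), whose smallest unadjusted p over 6 pairs is 0.0312. After adjustment a ratio could pass only if most of the 14 reached that smallest p, so the test says little of any single ratio. Other cell types moved too: 9 of 10 microglia and macrophage genes were higher, with a median log2 fold change of 2.71 (*Trem2*, a microglial receptor, 4.37 ± 0.24, limma q = 1.03e-07). The summed count of the 10 (13867 to 19383 in WT, 21255 to 29204 in rd6) was mostly *Csf1r*, the gene not called (0.12 ± 0.10, limma q = 0.385). Also higher were 4 of 6 endothelial genes (summed count 4340 to 8315 in WT and 7138 to 16583 in rd6, with 2 called under the replicate block), 1 of 6 fibroblast genes was lower, and of 10 Müller glia genes 1 was higher and 1 lower. Of 5 ciliary margin genes, 0 were called by limma, edgeR or DESeq2, and 0 had an unadjusted p below 0.05. The part of these cell types in the members' differences was not tested.

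Within a genotype, libraries high in *Mfrp* tended to be high in *Myrf*. After subtracting each genotype's mean, log2 levels of *Mfrp* and *Myrf* had r = 0.88 over the 12 libraries, *Tmem98* and *Myrf* 0.76, and *Mfrp* and *Tmem98* 0.71. *Crb1* ran against them, with r of -0.62 to *Mfrp*, -0.73 to *Tmem98* and -0.74 to *Myrf*. Over the 10 libraries other than the pair that stood apart the values were nearer 0, at 0.54, 0.29, -0.15, -0.06, -0.48 and -0.37, in that order. All these libraries share tissue make-up and dissection, and the values are descriptions.

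The genes most like each member by this measure differed between members. *Mfrp* was most like the pseudogene *Tmed10-ps*, *Atrnl1* and *Iqsec1* (r = 0.97 for each). *Atrnl1*, an attractin-like membrane protein, also fell in rd6 (-0.89 ± 0.11, limma q = 8.46e-05), while *Tmed10-ps* stood at 0.00 ± 0.06. *Tmem98* was most like *Prxl2a* (r = 0.99), an antioxidant-like protein that fell by 0.47 on the log2 scale (SE 0.09, limma q = 0.00208), then *Atp6v0c-ps2* and *Pla2g12a* (r = 0.98 for each), which were not called (log2 fold changes of -0.01, limma q = 0.941, and 0.25, limma q = 0.0916). *Myrf* was most like the sialyltransferase *St3gal6*, the deubiquitinase *Usp32* and the adaptor *Gab2* (r = 0.98 for each), and *Usp32* (-0.57 ± 0.08, limma q = 0.00032) and *Gab2* (-0.59 ± 0.10, limma q = 0.00136) fell too, while *St3gal6* did not pass (0.07, limma q = 0.728). *Crb1* was most like *Impg2* and *Rtbdn* (r = 0.97 for each), and *Cacna1f* (r = 0.96), which encode a matrix proteoglycan, a riboflavin-binding protein and a calcium channel of photoreceptors, and without both libraries that stood apart these were 0.95 to 0.98. *Prss56* was most like *2900026A02Rik*, *Ccnd2* and *Map4k5* (r = 0.93 to 0.94), and *Best1* most like *Fggy*, *Pdcd7* and *Ampd3* (r = 0.86 to 0.88).

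Around the members, 113 genes are annotated within 250 kb, and 35 of them, other than the members, were tested. Of these, 7 were lower and 3 higher in rd6, where 11.6% and 11.4% of all genes tested were. With the replicate block 4 were lower, and *Kcnj13*, *Fads1* and *Hinfp* lost their calls (limma q of 0.0777, 0.0896 and 0.0532). *Mfrp* had 15 tested neighbours, of which 2 were lower, *C2cd2l* (-0.53 ± 0.06, limma q = 3.05e-05), a lipid transfer protein at contacts between endoplasmic reticulum and plasma membrane, and *Hinfp* (-0.33 ± 0.09, limma q = 0.0169), a regulator of histone genes. The neighbours nearest to *Mfrp* did not pass: *Usp2*, a deubiquitinase 6.1 kb upstream, had 0.27 ± 0.18, *Rnf26*, which overlaps it, 0.14 ± 0.07, and *Mcam*, an adhesion molecule 25.3 kb downstream, -0.12 ± 0.23. Both called genes lie 183.3 to 200.1 kb away and were named after their values were seen.

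*Myrf* and *Best1* lie 206.6 kb apart on chromosome 19 with the fatty acid desaturase genes between them. *Fads2*, the delta-6 desaturase, had 5875 to 9072 normalized counts in WT and 3619 to 5479 in rd6 and fell by 0.85 on the log2 scale (SE 0.12, limma q = 0.00028), the one neighbour of any member past the fold limit of the study. *Fads1*, the delta-5 desaturase, had -0.40 ± 0.12 (limma q = 0.032), and *Fads3* -0.10 ± 0.09 (limma q = 0.474). *Tmem258*, a subunit of the oligosaccharyltransferase whose end lies 0.4 kb from that of *Myrf*, rose (0.40 ± 0.08, limma q = 0.00211). *Dagla*, the lipase on the other side of *Myrf*, did not pass (-0.21 ± 0.09, limma q = 0.127). Beside *Tmem98*, the unconventional myosin gene *Myo1d* rose (0.43 ± 0.05, limma q = 2.31e-05) and the ion channel gene *Asic2* fell (-0.76 ± 0.11, limma q = 0.000462). Beside *Crb1*, the RAB35 activator *Dennd1b* fell (-0.59 ± 0.07, limma q = 4.7e-05), *Zbtb41* on its other side standing at -0.07 ± 0.13. Of 5 tested neighbours of *Prss56*, the 4 nearest, *Eif4e2*, *Efhd1*, *Dis3l2* and *Gigyf2*, were not called (-0.22 to 0.04). The farthest, the RPE potassium channel *Kcnj13* at 198.0 kb, fell by 0.40 (SE 0.11, limma q = 0.0187). That call was lost with the replicate block (limma q = 0.0777). In its RNA sequencing data, normalized to *Actb*, the paper found no significant difference in *Kcnj13* by unpaired t tests. Taken over all members, neighbours changed in both directions.

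**Figure D4:**
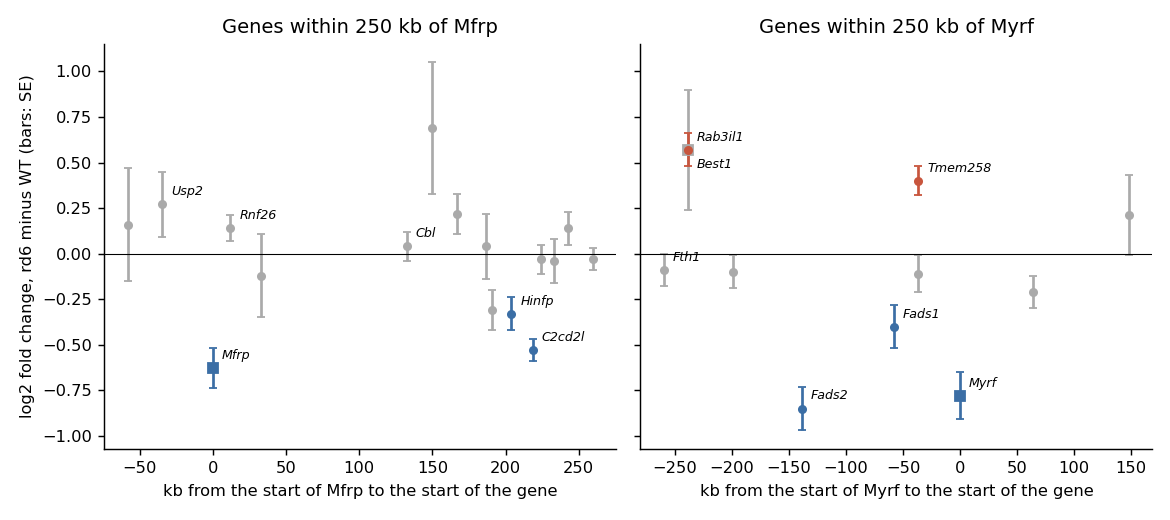
Log2 fold change (rd6 minus WT, bars SE) of tested genes within 250 kb of *Mfrp* (left) and *Myrf* (right), plotted by the distance in kb between gene starts on the reference strand. Squares are members, blue and red are genes called lower and higher at q below 0.05 and grey genes were not called. *Mfrp* and *Myrf* lie among neighbours of either sign.

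Of 102 genes on 6 lists related to the members by disease or function, 93 were tested, and 23 (24.7%) were lower and 5 (5.38%) higher in rd6, where 11.6% and 11.4% of all genes tested were. The median log2 fold change over them was -0.10, against 0.0049 over all genes tested. Without the pair of libraries that stood apart, 30 were lower and 10 higher.

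Many genes of microphthalmia and anophthalmia, though not all on this list, act early in eye formation or in its retinoic acid supply. Of 35 tested, 8 were lower and 1 higher, with a median of -0.10. *Bmp4*, a growth factor of the early eye, had 7481 to 12901 normalized counts in WT and 4577 to 6673 in rd6 (-0.92 ± 0.12, limma q = 0.000162). *Rbp4*, the serum carrier of retinol, was low (23.3 to 78.8) and fell by 0.81 (SE 0.22, limma q = 0.0187), a call lost with the replicate block (limma q = 0.0910). The respiratory chain subunit *Cox7b*, the 1 gene called higher, had 0.24 ± 0.07 (limma q = 0.0236). It lost its call without both libraries that stood apart (limma q = 0.0547), and no gene of the list was called higher without WT replicate 1, WT replicate 2 or rd6 replicate 6. Without both libraries 11 were lower and 2 higher, and with the replicate block 6 were lower and 1 higher. The RPE transcription factors *Otx2* (-0.18 ± 0.10, limma q = 0.220) and *Mitf* (-0.15 ± 0.07, limma q = 0.133) did not pass.

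Of 14 genes of high myopia, the opposite refractive error, 3 were lower and 0 higher by limma, and without the pair of libraries that stood apart 4 were lower and 4 higher. *Dzip1*, a ciliary basal body protein, had 3208 to 4473 normalized counts in WT and 1809 to 2110 in rd6, without overlap (-1.01 ± 0.07, limma q = 6.34e-07). *Lrp2*, the endocytic receptor megalin, whose loss gives enlarged eyes in mice, fell by 0.78 (SE 0.10, limma q = 0.000141). The other was *Xylt1* (-0.72 ± 0.11). Without WT replicate 4 alone 5 were higher. With all libraries, edgeR and DESeq2 also called 0 higher, TMM rescaling called 1, and 4 had an unadjusted limma p below 0.05 (*P4ha2*, *Ndufaf7*, *Ctsh* and *Loxl3*).

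Of 10 tested relatives of *C1qtnf5* and their receptors, 2 were higher and 1 lower (2 and 2 without both libraries that stood apart). *C1qtnf6* had 422 to 572 normalized counts in WT and 553 to 746 in rd6 (0.49 ± 0.10, limma q = 0.00288), and *C1qtnf12* rose by less (0.27 ± 0.06, limma q = 0.00672). *C1qtnf9* was low and had -0.58 ± 0.17 (limma q = 0.0251). No gene of the list was called lower without WT replicate 1 or WT replicate 6, with no filter on low values or with the replicate block, where *C1qtnf9* had a limma q of 0.0818. *Adipor1*, the adiponectin receptor, had 12142 to 14449 normalized counts in WT and 12133 to 13778 in rd6 (-0.05 ± 0.05, limma q = 0.522).

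Genes of the Crumbs polarity complex and its partners, which set the apical side of epithelia and photoreceptors, were lower in 6 and higher in 1 of 14. *Mpp3*, a scaffold that binds Crumbs, had 90.8 to 255 normalized counts in WT and 40.2 to 109 in rd6 (-1.29 ± 0.25, limma q = 0.00295). *Crb2*, the Crumbs protein with the higher count here, had 1650 to 2169 in WT and 940 to 1203 in rd6, without overlap (-0.73 ± 0.09, limma q = 6.72e-05). *Pard6a*, a polarity adaptor, had 0.33 ± 0.11 (limma q = 0.0407). A gene of the list was called higher in 4 of the 12 fits that each left out 1 library, and none with no filter, with the replicate block (*Pard6a* limma q = 0.0744) or without the pair of libraries that stood apart (limma q = 0.0804).

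Of 10 tested genes of chloride transport, related to *Best1*, 2 were lower and 1 higher. The bestrophin *Best3* had 36.5 to 73.0 normalized counts in WT and 23.5 to 32.0 in rd6 (-0.93 ± 0.17, limma q = 0.00167). The endosomal exchanger *Clcn3* fell by 0.40 (SE 0.07, limma q = 0.00191), and the sodium, potassium and chloride cotransporter *Slc12a2* rose by 0.47 (SE 0.09, limma q = 0.00341). Of 11 genes of the apical RPE membrane, 3 were lower: the lactate transporter *Slc16a1* (-0.93 ± 0.13, limma q = 0.000201), the glucose transporter *Slc2a1* (-0.53 ± 0.08, limma q = 0.000561) and *Kcnj13*. With the replicate block 2 were lower, *Kcnj13* no longer among them. These lists were chosen with results of the same data known, and their counts are descriptions.

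**Figure D5:**
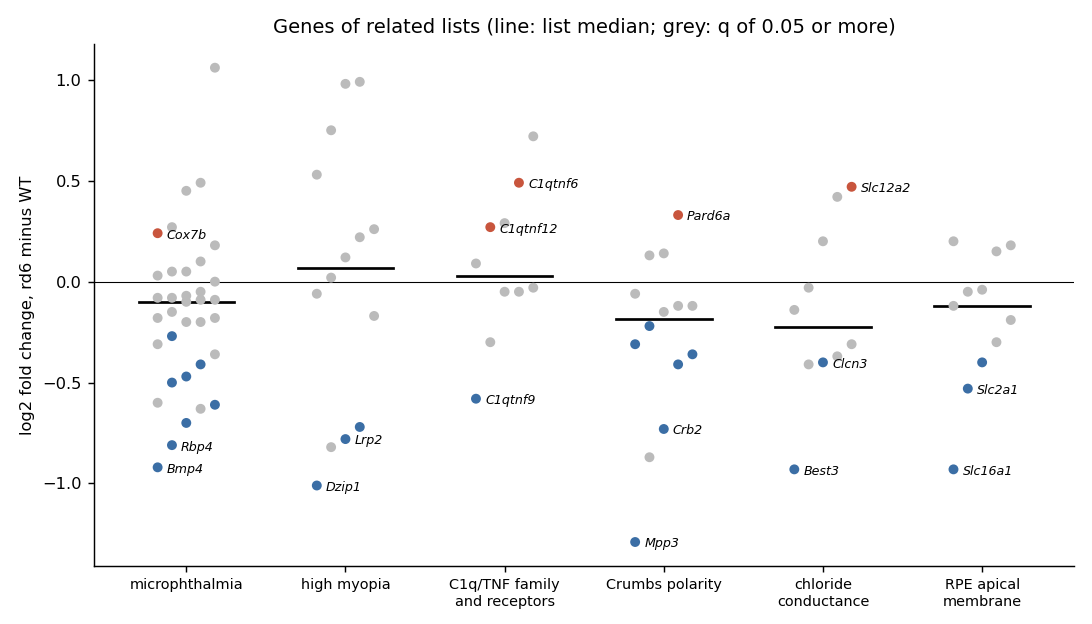
Log2 fold change of rd6 against WT for each tested gene of the 6 lists, with the list median as a black line. Blue and red points were called lower and higher at q below 0.05 and grey points were not called; list medians lie between -0.23 (chloride conductance) and 0.07 (high myopia).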

How the data were processed

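The 12 RPE libraries (1 mo) were grouped by the genotype in the labels. Stranded total-RNA libraries were sequenced as read pairs and counted by the authors on mm10 with Rsubread at standard settings. By default Rsubread does not use strand, and the annotation counted on is not given in the sources used here. Per the paper's methods, the authors then ran DESeq2, and the deposited signal is each read count over its library's size factor. The table also holds their log2 fold changes, standard errors, Wald statistics and p-values, which were not used. The value of 1 read was worked out per library, and 100% of values came out as whole reads within 0.01. Of 28596 entries, 5 repeats were dropped. The members and lists were chosen with earlier results of these data known.

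The main test was limma 3.58.1 (R 4.3.3, mean-variance trend) on log2(value + 1) (genes averaging 10 or more), with genotype as the only term and Benjamini-Hochberg adjustment (q). Such fold changes understate the change of low genes. edgeR 4.0.16 (quasi-likelihood) and DESeq2 1.42.0 on the recovered reads, other pseudocounts (0.1 and 10), no filter, a minimum of 10 in each library, TMM rescaling, a replicate block and leaving out each library were alternatives. Single values and ratios used exact permutation tests over 924 splits. Levels per length used exon unions of GENCODE M21 (28545 genes matched). Named genes were all members, the 2 largest called rises and falls per list, the nearest or overlapping neighbours and those past the fold limit of the study, and the 3 genes most correlated with each member. Other neighbours and list genes were named after their values were seen. Libraries of a genotype differed by a chi-square of at least 9.51 per gene in all 30 pairs, so none was counted as a copy. Intervals and depth cover the spread or counting error only.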

Additional observations from a re-analysis of the deposited data

Results flagged for a closer look

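Of 152 groups of 6 libraries (members, named genes, ratios and marker lists in either genotype), 20 held 1 library far from the others, its gap to the nearest, taken as a share of the whole range, passing Dixon's 95% limit. Chance gives about 1 in 20 for independent groups, a rate that does not apply here, since the groups share libraries and include genes named for following a member across them. Among members these were *Prss56* in WT replicate 4 (58.3 normalized counts, group median 11.4) and *Crb1* in rd6 replicate 5 (322, group median 107).

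Many of the others fell on these same libraries. WT replicate 4 was lowest in the RPE marker mean (16.08 on the log2 scale), *Iqsec1* (8034) and *Pla2g12a* (1169) and highest in the ciliary margin mean (9.20), *2900026A02Rik* (1289) and *Map4k5* (1229). The library of rd6 replicate 5 was highest in the rod mean (11.68), *Impg2* (397), *Rtbdn* (447) and *Cacna1f* (218) and lowest in *Clcn3* (4804), *Iqsec1* (6785), *St3gal6* (4912) and the log2 ratio of *Tmem98* to *Actb* (0.58). In other libraries, *Lrp2* was high in WT replicate 6 (10198), *Crb2* low in rd6 replicate 6 (940), *Usp2* low in WT replicate 1 (608) and *Pdcd7* low in WT replicate 3 (360).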

How the results depend on the processing

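*Mfrp* and *Myrf* kept their direction and their call under each alternative run, leave-one-out fits and the replicate block included (limma q of 0.0147 and 0.0144 with the block). *Tmem98* did not: its log2 fold change was -0.36 with the replicate block (limma q = 0.0934), and from -0.44 to -0.30 when 1 library was left out. *Crb1* turned to 0.06 relative to rod genes. With the block, neighbours called lower fell to 4, and the log2 ratios were 0.42 (*Tmem98* over *Myrf*), 1.35 (*Best1* over *Myrf*), -0.56 and -0.72 (*Mfrp* and *Myrf* over *Actb*), and -0.31 and -0.46 (*Mfrp* and *Myrf* over RPE genes), each with an adjusted p of 0.125 in the exact sign-flip test. That test can pass a ratio after adjustment only if most ratios reach its smallest p. The replicate numbers do not pair the libraries: deviations of same-numbered libraries had correlations from -0.74 to 0.31, and 0 of 6 WT libraries were most like their own number. With a pseudocount of 10, *Best1* passed over *Actb* (0.47) and over RPE genes (0.72). With *Gapdh* in place of *Actb*, *Tmem98* passed (-0.64). Without WT replicate 4 and rd6 replicate 5, chosen after seeing the data, *Tmem98* over *Actb* (-0.30), *Prss56* over RPE genes (1.89) and *Best1* over RPE genes (0.89) passed, and 10 list genes were higher.

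Leaving out 1 library at a time, list genes called higher ranged from 3 to 13 (13 without WT replicate 4). The ratios ranged from 1.13 to 1.53 (*Best1* over *Myrf*), -0.68 to -0.44, -0.41 to -0.19, -0.83 to -0.55 and 0.50 to 0.78 (*Mfrp*, *Tmem98*, *Myrf* and *Best1* over *Actb*), and 0.95 to 1.82 and 0.71 to 1.04 (*Prss56* and *Best1* over RPE genes). With the longest transcript as the length, *Myrf* stood at 163 in WT and 99.1 in rd6 and *Crb1* at 1.30 and 0.744 RPKM. *Prss56* and *Best1* have no value under the filter of at least 10 in every library. The causes were not tested. The few reads of *Prss56* and *Best1* limit what can be seen of them.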
